A study of Homo sapiens with 32 samples.

Results

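The 10 genes described here encode inflammatory cytokines and chemokines: CXCL1, CXCL2, CXCL3, CXCL5, CXCL8, CCL20, IL6, LIF, IL1A and IL1B. They were picked by name from the 19815 protein-coding genes among the 60554 genes counted in each cell line. CXCL8 was picked for its fall in hypoxic MCF10A cells, so its changes in MCF10A against normoxia or against hypoxia are described here without a test. Total mRNA (T) and polysomal mRNA (P, transcripts recovered with several ribosomes attached) were sequenced from 2 human breast cell lines. MCF10A is a non-tumorigenic mammary epithelial line, and MDA-MB-231 is a triple-negative breast cancer line. Each line was kept in normoxia (N), in hypoxia at 0.5% O2 for 24 h (H), in normoxia with 2.5 µM PP242 for 3 h (NPP), or in hypoxia with the same PP242 treatment (HPP). PP242 inhibits the catalytic site of the kinase mTOR, and the cells without it received the vehicle DMSO. The MCF10A medium held serum, EGF, insulin, hydrocortisone and cholera toxin, whereas the MDA-MB-231 medium held serum without the other additions named, so line and medium cannot be told apart. Each of the 8 groups per line had 2 libraries that the labels call biological replicates, and a total library and a polysomal library with the same number came from the same culture.

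The 32 libraries held between 18340916 and 46032327 counts, with a median of 34561484. Levels are given as CPM, protein-coding counts scaled to a common library size by edgeR (cpm with TMM), for replicate 1 and then replicate 2. The TMM factors ran from 0.764 (MCF10A NPP T replicate 2) to 1.125 (MCF10A NPP T replicate 1). A gene was called changed when its adjusted p was under 0.05 in the edgeR quasi-likelihood test over all tested genes of the line. CXCL5 and IL6 failed the low-count filter in MCF10A, and CXCL5 and CCL20 failed it in MDA-MB-231, so 8 of the 10 genes were fitted in each line. A lower level in such bulk samples can come from fewer cells of a kind or from less RNA per cell, which cannot be told apart.

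The labels were checked against genes outside the group. In hypoxia against normoxia, 6 of 8 classical hypoxia-induced genes were called higher in both fractions of both lines, with CA9, a carbonic anhydrase, up by 5.95 (log2) in MCF10A total mRNA and by 5.46 in MDA-MB-231. The MCF10A libraries carried the basal keratins KRT5 (median 1920 CPM) and KRT14 (1540 CPM), but the basal regulator TP63 (0.0402 CPM) and the epithelial adhesion genes CDH1 (0.0785 CPM) and EPCAM (0.303 CPM) were near 0. Those libraries also held VIM (2620 CPM), SPARC (136 CPM) and DCN (110 CPM), which are mesenchymal or fibroblast genes. The markers thus bore out an epithelial state only in part, and the label MCF10A was kept. Line differences below are between the libraries as labelled. MDA-MB-231 libraries held VIM (3970 CPM) and AXL (845 CPM), with ESR1 at 0.141 CPM and PGR at 0.233 CPM. Of the 5 leukocyte markers, CD68 made up most of the summed level (median 74.9 CPM in MCF10A and 93.9 CPM in MDA-MB-231). The pan-leukocyte gene PTPRC had medians of 0.0329 and 0.595 CPM, and LYZ 0 and 0.402 CPM.

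CXCL1, CXCL2, CXCL3, CXCL5 and CXCL8 (interleukin-8) are ELR-motif chemokines that draw neutrophils through the receptors CXCR1 and CXCR2, and CCL20 draws lymphocytes and dendritic cells through CCR6. IL-6 and LIF signal through the shared receptor chain gp130, encoded by IL6ST, to JAK and STAT proteins. IL-1α and IL-1β act through the IL-1 receptor on NF-κB and AP-1, transcription factors known to switch on most of the genes above. Their mRNAs are known to be short-lived, because AU-rich elements in the 3′ UTR recruit decay proteins of the ZFP36 family.

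The promoters are printed because most of them share one sequence form. RefSeq (GRCh38.p14) gave a promoter for 9 of the 10 genes, each running from 250 bases before to 50 bases after the annotated start. LIF was not among them. Both strands were searched for the NF-κB form GGNNTTTCC, the AP-1 form TGANTCA and the hypoxia response core ACGTG. The NF-κB form was found in 7 of 9 promoters, against 6.26% of 35116 RefSeq promoters of that length. The AP-1 form was found in CXCL8 and IL1A, against 7.71% of promoters, and ACGTG only in IL1A among the 9, against 21.4%. The IL1B promoter held none of the 3. Matches describe the letters in these windows and not sites bound in these cells. The whole CXCL8 promoter (chr4:73740319-73740618, plus strand) and the upstream one of the 2 IL1A entries (chr2:112784444-112784743, minus strand) are given first, with matches to any of the 3 forms in capitals.
CXCL8: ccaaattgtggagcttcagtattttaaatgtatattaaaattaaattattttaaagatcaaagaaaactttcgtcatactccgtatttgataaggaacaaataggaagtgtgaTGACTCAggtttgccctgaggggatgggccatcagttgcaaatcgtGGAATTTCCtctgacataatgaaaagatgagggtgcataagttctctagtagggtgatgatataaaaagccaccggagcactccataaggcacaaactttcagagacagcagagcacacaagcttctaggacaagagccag
IL1A: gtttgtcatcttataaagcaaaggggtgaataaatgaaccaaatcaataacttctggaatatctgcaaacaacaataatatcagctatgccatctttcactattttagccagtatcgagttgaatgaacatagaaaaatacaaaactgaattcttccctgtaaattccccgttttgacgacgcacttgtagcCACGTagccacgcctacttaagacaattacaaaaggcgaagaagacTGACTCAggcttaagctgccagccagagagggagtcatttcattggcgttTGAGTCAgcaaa

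The other 6 matching genes are shown as 60 bases from -100 to -41, with the NF-κB form in capitals, at chr4:73869293-73869352 (CXCL1, plus strand), chr4:74099236-74099295 (CXCL2, minus), chr4:74038730-74038789 (CXCL3, minus), chr4:73998718-73998777 (CXCL5, minus), chr2:227813742-227813801 (CCL20, plus) and chr7:22727100-22727159 (IL6, plus). CXCL1, CXCL2 and CXCL3 each carried 2 matches within nearly identical sequence, and the CCL20 match lay on the opposite strand.
CXCL1: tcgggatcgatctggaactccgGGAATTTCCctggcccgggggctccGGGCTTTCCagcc
CXCL2: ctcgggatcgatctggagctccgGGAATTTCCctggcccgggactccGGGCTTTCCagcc
CXCL3: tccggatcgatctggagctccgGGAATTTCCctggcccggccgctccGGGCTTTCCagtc
CXCL5: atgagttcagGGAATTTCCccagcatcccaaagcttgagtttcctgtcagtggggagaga
CCL20: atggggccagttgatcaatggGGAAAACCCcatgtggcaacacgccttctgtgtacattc
IL6: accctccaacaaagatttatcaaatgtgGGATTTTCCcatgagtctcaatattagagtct

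The 3′ UTRs were read from the principal transcripts of GENCODE v44 on GRCh38. They held between 3 and 11 copies of ATTTA, the core of the AU-rich element. Per kilobase this was 2.19 (LIF) to 14.1 (IL6), with a median of 7.48, against a median of 1.57 and a 95th percentile of 6.41 over 18649 transcripts. At least 2 copies of TATTTAT were present in 9 of the 10 genes, CCL20 being the exception, against 13.8% of transcripts. A window of 30 bases is printed for 4 genes whose values the comparisons turn on, with ATTTA in capitals.
CXCL8, bases 644 to 673 of the 3′ UTR: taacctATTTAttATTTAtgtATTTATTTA
CXCL1, bases 129 to 158: cttaggagaagtcttctATTTATTTATTTA
IL1A, bases 614 to 643: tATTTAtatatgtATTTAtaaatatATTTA
IL1B, bases 329 to 358: tgagcaaccgcttccctATTTATTTATTTA

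In normoxia the 2 lines carried different members of the group, which is the first question the design allows. Per kilobase of transcript, CXCL1 (26.2 and 15.1 CPM per kb) and CCL20 (18.4 and 14.6) led in MCF10A total mRNA, and their ranges overlapped. CXCL3, CXCL8, CXCL2 and LIF followed between 6.90 and 2.06 CPM per kb, each overlapping the next except LIF, which lay just below CXCL2. IL1A (0.194 and 0.105), IL6 (0.0695 and 0.0748) and IL1B (0.0693 and 0.0140) were lowest among the genes with counts there, and CXCL5 had 0 counts in both libraries. In MDA-MB-231 LIF led (17.0 and 16.6 CPM per kb), ahead of CXCL8 (15.2 and 8.34), IL6 (7.51 and 3.58) and CXCL1 (6.60 and 3.49). CCL20 stood at 0.0860 and 0.136 CPM per kb there.

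**Figure D1:**
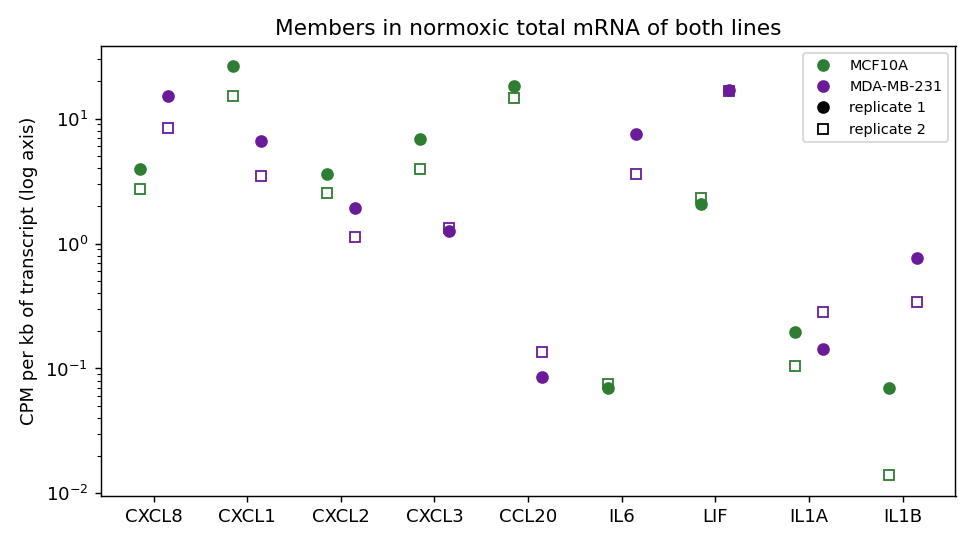
Level of 9 of the genes in the normoxic total libraries, as TMM-scaled CPM per kb of transcript on a log axis. Each point is 1 library, coloured by line and shaped by replicate, and CXCL5 is left out. CCL20 is high in MCF10A and near 0.1 in MDA-MB-231, and IL6 shows the opposite order.

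The line difference was tested in a joint fit of all 32 libraries. Of the 8 genes tested, 7 were called, 3 higher and 4 lower in MDA-MB-231, where 40.7% of all genes were called. CCL20 and IL6, both among those called, passed the joint low-count filter through the line in which they are high. A difference was thus built into their being tested, and the count of 7 includes them. CCL20 gave 586 and 576 counts in the MCF10A libraries but 2 in each MDA-MB-231 library, a ratio of 154 (95% counting interval 60 to 566). The other genes lower in MDA-MB-231 were CXCL1 by a log2 change of -2.48 ± 0.47 (SE), CXCL3 by -2.52 ± 0.52 and CXCL2 by -1.45 ± 0.47, with edgeR adjusted p of 0.000197, 0.000467 and 0.0181. IL6 was 82.7 times higher in MDA-MB-231 by its counts (interval 39.7 to 207). LIF was higher by 2.48 ± 0.40 (adjusted p = 3.19e-05), and IL1B by 3.31 ± 0.91 (0.00592) on 41 summed counts against 5. IL1A did not pass (0.00 ± 0.72, adjusted p = 0.999), and CXCL8, untested, differed by 1.37 ± 0.40. The CXCL2 call was lost without MCF10A N T replicate 1 (adjusted p = 0.122) or MDA-MB-231 N T replicate 2 (0.164), and the IL1B call without MCF10A N T replicate 2 (2.53, adjusted p = 0.0939) or MDA-MB-231 N T replicate 1 (0.0961). Without MCF10A N T replicate 1 the IL1B difference was 4.67, and without MDA-MB-231 N T replicate 1 that of CXCL1 was -3.07.

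CXCL8 (chr4:73740519-73743716, plus strand, 4 exons) lies in the chemokine cluster of chromosome 4. In MCF10A its total mRNA stood at 6.48 and 4.45 CPM in N, and at 1.48 and 1.48 CPM in H. Its polysomal mRNA stood at 3.95 and 2.53 CPM in N, and at 0.901 and 0.559 CPM in H, the last on 24 and 25 counts. Both hypoxic replicates lay below both normoxic ones in each fraction. The fall was 3.69-fold in total mRNA (log2 -1.88 ± 0.34, SE) and 4.47-fold in polysomal mRNA (-2.16 ± 0.36), as the choice of the gene required.

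With PP242 the MCF10A level of CXCL8 was above the normoxic one under either oxygen condition. NPP gave 24.1 and 16.7 CPM in total and 14.9 and 15.4 CPM in polysomal mRNA. HPP gave 26.9 and 22.3 CPM in total and 20.0 and 16.1 CPM in polysomal mRNA. These libraries all lay above those of N and H. The log2 changes against N were 1.90 ± 0.33 (T) and 2.23 ± 0.33 (P) in NPP, and 2.17 and 2.48 in HPP. Against H, the HPP level was 16.6-fold higher in total and 25-fold higher in polysomal mRNA (log2 4.06 ± 0.36 and 4.64 ± 0.38). HPP against NPP, which the choice of the gene did not use, gave 0.27 ± 0.32 in total mRNA (adjusted p = 0.744) and 0.25 in polysomal mRNA (adjusted p = 0.707), and neither passed.

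**Figure D2:**
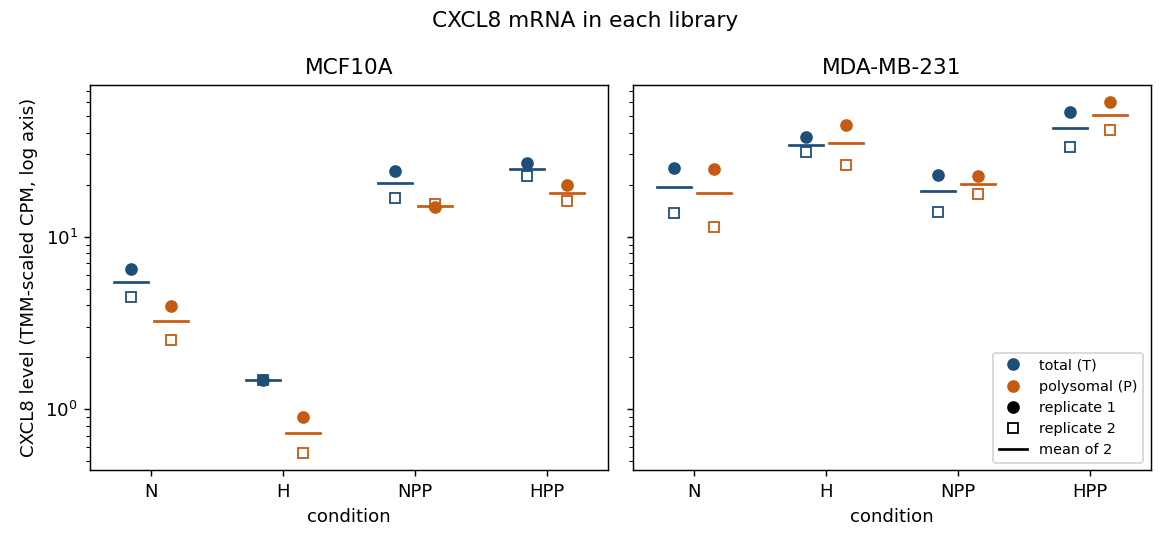
CXCL8 level in each of the 32 libraries, as TMM-scaled CPM on a log axis, by line, condition and fraction. In MCF10A the H libraries lie lowest and the NPP and HPP libraries highest, whereas in MDA-MB-231 the H and HPP libraries lie above the N and NPP libraries.

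In MDA-MB-231 the order of the conditions was another one. CXCL8 total mRNA stood at 25 and 13.7 CPM in N, 37.6 and 30.8 in H, 22.8 and 13.9 in NPP and 53.0 and 32.9 in HPP. Polysomal mRNA stood at 24.5 and 11.4 CPM in N, 44.2 and 25.9 in H, 22.5 and 17.8 in NPP and 60.0 and 41.8 in HPP. Every hypoxic library, with or without PP242, lay above every normoxic one of its fraction, and H and HPP overlapped. Replicate 1 was above replicate 2 in 8 of 8 groups.

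The called change in MDA-MB-231 was HPP against N in polysomal mRNA, where CXCL8 rose 2.85-fold (log2 1.51 ± 0.39, adjusted p = 0.0159). It was lost without HPP P replicate 1 (1.22, adjusted p = 0.132) or without N P replicate 2 (1.05, adjusted p = 0.153), and the change was 2.23 without N P replicate 1. The same comparison in total mRNA gave 1.14 ± 0.39 (adjusted p = 0.0676). H against N gave 0.81 ± 0.39 in total (0.408) and 0.97 ± 0.39 in polysomal mRNA (0.215), and HPP against NPP gave 1.23 ± 0.39 (0.115) and 1.34 ± 0.39 (0.0741), none of which passed with the low-count filter and no replicate block. DESeq2, another count test, did not call them either, whereas each was called by edgeR when the filter was dropped or when the replicate number was added as a block. NPP against N was -0.09 (0.983) in total and 0.17 (0.902) in polysomal mRNA.

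CXCL1, CXCL2 and CXCL3 are close paralogs on chromosome 4, and RSEM assigns reads that fit several genes by estimated probability, so their separate values are uncertain. CXCL1 (chr4:73869393-73871308, plus strand) was, like CXCL8, lowest in H and above N with PP242 in MCF10A total mRNA, but stood lower in HPP than in NPP. Its total mRNA stood at 30.7 and 17.7 CPM in N, 15.6 and 11.1 in H, 70.1 and 56.1 in NPP and 52.5 and 38.5 in HPP. Polysomal mRNA stood at 32.3 and 14.7 CPM in N, 17.4 and 7.45 in H, 58.6 and 41.7 in NPP and 42.1 and 25.6 in HPP. In total mRNA the 4 conditions did not overlap, with H lowest and NPP highest. None of these changes passed in edgeR without a term for the replicate number, whereas DESeq2 called HPP against H. In edgeR NPP against N was 1.38 ± 0.49 in total mRNA (adjusted p = 0.346), HPP against H 1.77 ± 0.49 (0.0751), HPP against N 0.91 ± 0.48 (0.245) and H against N -0.86 ± 0.48 (0.62).

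In MCF10A total mRNA the libraries with the same replicate number deviated together, so a fit with the number as a block within each fraction is given beside these values. It was added after seeing the data. There CXCL1 was called higher in NPP against N (1.42, adjusted p = 0.012), in HPP against N (0.94, adjusted p = 0.012) and in HPP against H (1.77, adjusted p = 0.00162). CXCL3 was called higher in HPP against H (1.15, adjusted p = 0.0342). This fit called 1.7%, 26.5% and 8.79% of all genes in the 3 comparisons, against 0.648%, 14.9% and 3.74% without a block.

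CXCL3 (chr4:74036589-74038807, minus strand) was less variable between conditions. Its MCF10A total mRNA stood at 7.42 and 4.22 CPM in N, 5.81 and 3.44 in H, 8.99 and 4.56 in NPP and 13.3 and 7.35 in HPP. CXCL2 (chr4:74097040-74099196, minus strand) stood at 4.05 and 2.80 CPM in N, 2.63 and 1.84 in H, 4.06 and 3.39 in NPP and 4.45 and 3.32 in HPP. For CXCL3 each condition overlapped N, and for CXCL2 only H lay below N. Their largest fitted changes against N in total mRNA were 0.83 ± 0.58 for CXCL3 in HPP (adjusted p = 0.386) and -0.61 ± 0.54 for CXCL2 in H (0.884). Replicate 1 was above replicate 2 in 8 of 8 MCF10A groups for CXCL1, CXCL2 and CXCL3, and in 7 of 8 for CXCL8.

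CXCL5 (chr4:73995642-73998677, minus strand) was not detectable at this depth in most libraries. It had 0 counts in 15 of 16 MCF10A and 13 of 16 MDA-MB-231 libraries, and at most 2 counts in any of them. Its locus overlaps a long non-coding RNA on the opposite strand. In MDA-MB-231, CXCL1 ranged from 3.68 to 9.33 CPM, CXCL2 from 0.305 to 2.76 CPM and CXCL3 from 0.191 to 1.42 CPM, and none was called in any treatment comparison.

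**Figure D3:**
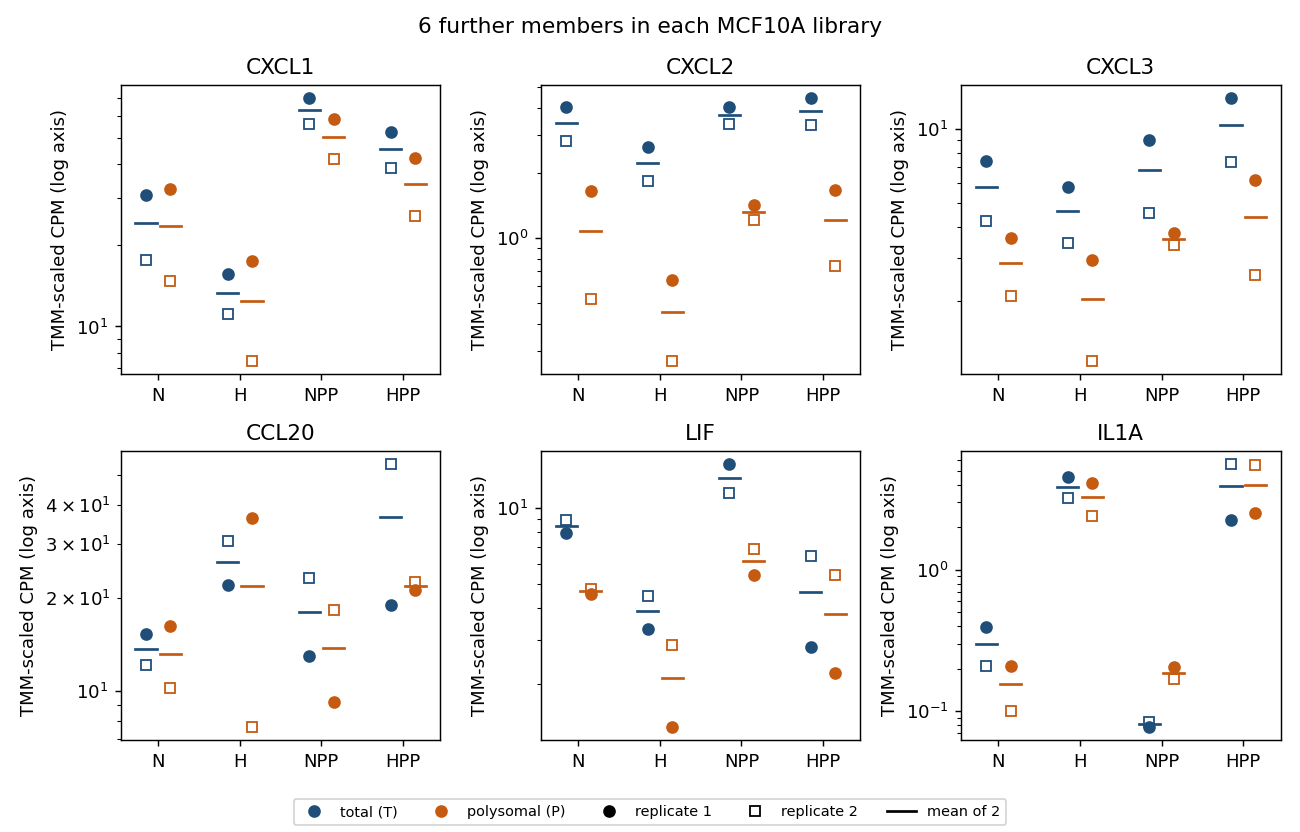
Levels of CXCL1, CXCL2, CXCL3, CCL20, LIF and IL1A in each MCF10A library, as TMM-scaled CPM on log axes, with total and polysomal mRNA in separate colours and the mean of 2 replicates as a bar. IL1A is high in both hypoxic conditions, CXCL1 is highest with PP242, and the CCL20 replicates spread widely.

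CCL20 (chr2:227805739-227817564, plus strand) was abundant in MCF10A and its replicates disagreed. Total mRNA stood at 15.3 and 12.1 CPM in N, 22.0 and 30.5 in H, 13 and 23.2 in NPP and 19.0 and 54.2 in HPP. In total mRNA both H and both HPP libraries lay above N. In polysomal mRNA H gave 36.2 and 7.68 CPM around the normoxic 16.2 and 10.2 CPM. The changes were 0.94 ± 0.66 in H (adjusted p = 0.768) and 1.42 ± 0.67 in HPP (0.186), and neither passed. In MDA-MB-231 no library had more than 9 counts.

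IL6 (chr7:22725884-22732002, plus strand) was the mirror case, with 0 to 16 counts per MCF10A library. In MDA-MB-231 total mRNA it stood at 8.47 and 4.04 CPM in N, 4.40 and 4.19 in H, 26.5 and 7.91 in NPP and 7.99 and 7.53 in HPP. The polysomal NPP libraries stood at 26.8 and 4.84 CPM against 8.28 and 1.84 CPM in N. Only NPP replicate 1 was clearly above the rest, in both fractions, and NPP and N overlapped. The log2 changes of 1.44 ± 0.72 in total (adjusted p = 0.531) and 1.68 ± 0.73 in polysomal mRNA (0.325) did not pass. The IL6 locus overlaps STEAP1B and IL6-AS1 on the opposite strand, and the counting was not stated to use strand, so reads of these genes cannot be told apart.

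LIF (chr22:30240453-30246759, minus strand), a gp130 cytokine, stood lower in H than in N in both fractions of MCF10A. Total mRNA stood at 7.96 and 8.91 CPM in N, 3.30 and 4.45 in H, 14.9 and 11.4 in NPP and 2.81 and 6.45 in HPP. Both H and both HPP libraries lay below N, and both NPP libraries above it. Polysomal mRNA stood at 4.54 and 4.77 CPM in N, 1.35 and 2.86 in H, 5.43 and 6.88 in NPP and 2.22 and 5.39 in HPP. There H lay below N and NPP above it, but HPP overlapped N (-0.29 ± 0.49, adjusted p = 0.71). H against N was -1.12 ± 0.49 in total (adjusted p = 0.425) and -1.13 ± 0.50 in polysomal mRNA (0.373), and HPP against NPP was -1.51 ± 0.49 in total mRNA (0.12), so no change passed. With the replicate block within each fraction, added after seeing the data, HPP against NPP in total mRNA was called (-1.59, adjusted p = 0.028). That fit called 9.34% of all genes there, against 4.17% without a block. In MDA-MB-231 LIF lay between 35.7 and 66.0 CPM in all 16 libraries. LIF overlaps the antisense genes LIF-AS1 and LIF-AS2.

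IL1A and IL1B were the members that edgeR called in MCF10A treatment comparisons without a replicate block. IL1A (chr2:112773925-112784493, minus strand) encodes the IL-1 form that is active without processing and is held in the cell as an alarm signal. Its MCF10A total mRNA stood at 0.392 and 0.211 CPM in N (15 and 10 counts), 4.52 and 3.22 in H (193 and 131), 0.0775 and 0.0837 in NPP (3 and 2) and 2.26 and 5.61 in HPP (73 and 167). Polysomal mRNA stood at 0.210 and 0.1002 CPM in N, 4.09 and 2.42 in H, 0.207 and 0.169 in NPP and 2.53 and 5.50 in HPP. Every hypoxic library lay above every normoxic one, and H and HPP overlapped. IL1A passed the low-count filter only through its hypoxic libraries, so that a difference was built into its being tested, and it was also called with no filter beyond 1 count.

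IL1A stood 12.9-fold higher in H than in N in total mRNA (log2 3.69 ± 0.60, adjusted p = 0.00912) and 21.7-fold higher in polysomal mRNA (4.44 ± 0.65, adjusted p = 0.00495). These tests, and those that follow, carry the limit of the filter. The summed counts of H and N were 324 against 25 in total mRNA (counting interval of the ratio 8.87 to 20.9). In polysomal mRNA they were 217 against 11 (11.9 to 44.2). HPP against N gave 3.71 ± 0.60 (adjusted p = 0.00204) and 4.75 ± 0.66 (0.00072). HPP against NPP gave 5.56 ± 0.72 (0.00216) and 4.40 ± 0.63 (0.0026). On the 5 summed counts of NPP the total mRNA ratio was 48.3 with a 95% counting interval of 20.4 to 150. HPP against H gave 0.02 ± 0.51 and 0.31 ± 0.52, and NPP against N gave -1.85 ± 0.77 in total mRNA (0.456), none of which passed. The H call in total mRNA was lost without N T replicate 1 (adjusted p = 0.0956), N T replicate 2 (0.219) or H T replicate 1 (0.0571), and that in polysomal mRNA without N P replicate 2 (0.0978). The IL1A calls of HPP against N were made in all 16 fits that left out a library, but their size moved. The log2 change ran from 2.91 without HPP T replicate 2 to 4.31 without HPP T replicate 1 in total mRNA, and from 4.08 without HPP P replicate 2 to 5.36 without N P replicate 1 in polysomal mRNA. HPP against NPP ran from 4.75 without HPP T replicate 2 to 6.15 without HPP T replicate 1 in total mRNA and fell to 3.73 without HPP P replicate 2 in polysomal mRNA. The polysomal H change was 5.04 without N P replicate 1.

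IL1B (chr2:112829751-112836816, minus strand) encodes the secreted IL-1 form and was measured on few counts. Total mRNA had 4 and 1 counts in N, 15 and 17 in H, 0 and 1 in NPP and 13 and 31 in HPP. Polysomal mRNA had 1 and 4 counts in N, 9 and 12 in H, 1 and 2 in NPP and 11 and 55 in HPP. The H and HPP libraries lay above those of N and NPP in both fractions. IL1B too passed the filter only through H and HPP, the conditions in which it is high, so that a difference was built into its being tested. With no filter beyond 1 count, HPP against N and HPP against NPP were also called for IL1B in both fractions. HPP against N was called in total (3.52 ± 0.93, adjusted p = 0.0257) and polysomal mRNA (3.59 ± 0.92, adjusted p = 0.0173), with counting ratios of 12.1 (4.83 to 39.2) and 12.9 (5.26 to 41).

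HPP against NPP was also called for IL1B, with log2 changes of 5.19 ± 1.18 (adjusted p = 0.0329) and 4.27 ± 0.99 (0.0255), on 1 and 3 summed counts in NPP. Their counting ratios were 44.3 (7.55 to 1790) and 21.9 (lower bound 7.18). H against N gave 2.62 ± 0.94 (0.284) and 2.22 ± 0.97 (0.368) and did not pass. The HPP against N calls were lost without either normoxic replicate of the fraction (adjusted p of 0.0714 and 0.222 in total, 0.119 and 0.0666 in polysomal mRNA) or without HPP replicate 2 (0.191 and 0.196). HPP against NPP was lost in 9 of 16 fits in total mRNA, and in polysomal mRNA without NPP P replicate 1 (0.224), NPP P replicate 2 (0.149) or HPP P replicate 2 (0.221). The log2 change of HPP against N ran from 2.69 without HPP T replicate 2 to 4.88 without N T replicate 1 in total mRNA, and from 2.24 without HPP P replicate 2 to 4.35 without N P replicate 2 in polysomal mRNA. That of HPP against NPP ran from 4.00 without NPP T replicate 1 to 7.88 without NPP T replicate 2, and fell to 2.92 without HPP P replicate 2 in polysomal mRNA. In MDA-MB-231, IL1A ranged from 0.163 to 0.774 CPM and IL1B from 0.302 to 1.31 CPM, and neither was called in any comparison of treatments.

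Counted over the group, few members passed in either line. Without CXCL8, 7 members were tested in MCF10A, among them IL1A and IL1B through their hypoxic libraries. In H against N 1 member, IL1A, was called in total mRNA, where 1.54% of all genes were called, and 1 in polysomal mRNA, where 1.49% were. In NPP against N edgeR called 0 in total mRNA (2 at an unadjusted p under 0.05, 0 with DESeq2), where 0.648% of all genes were called, and 0 in polysomal mRNA (1 unadjusted, 0 with DESeq2), where 0.823% were. In HPP against N 2 members, IL1A and IL1B, were called in total mRNA, where 14.9% of genes were called, and the same 2 in polysomal mRNA, where 22.2% were.

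The members' median log2 change in MCF10A total mRNA was -0.33 in H, 0.23 in NPP and 0.91 in HPP, beside -0.03, 0.02 and -0.01 over all genes. In HPP against NPP, with CXCL8 included, 2 of 8 members were called in total mRNA, where 4.17% of genes were called, and 2 of 8 in polysomal mRNA, where 7.44% were. In each fraction these were IL1A and IL1B, which passed the filter only through hypoxic libraries, so a difference was built into these counts. In HPP against H edgeR called 0 of 7 in total mRNA (1 at an unadjusted p under 0.05, 1 with DESeq2, CXCL1), where 3.74% of genes were called, and 0 in polysomal mRNA (2 unadjusted, 1 with DESeq2, CXCL1), where 6.5% were. DESeq2 itself called 8.12% and 12% of genes in these 2 comparisons. The members' median in that total mRNA comparison was 0.80 beside -0.00 over all genes, with IL1A at 0.02 ± 0.51.

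In MDA-MB-231 all 8 fitted members were tested, and the counts that follow are those with the low-count filter and no block. Dropping the filter brought calls of CXCL8 or IL6, and a replicate block calls of CXCL8, in several of these comparisons, as listed in the section on processing. In H against N edgeR called 0 in total mRNA (0 at an unadjusted p under 0.05, 0 with DESeq2), where 1.27% of genes were called, and 0 in polysomal mRNA (1 unadjusted, 0 with DESeq2), where 2.29% were. In NPP against N it called 0 in total mRNA (0 unadjusted, 0 with DESeq2), where 0.555% were called, and 0 in polysomal mRNA (1 unadjusted, 0 with DESeq2), where 1.95% were. In HPP against N it called 0 in total mRNA (2 unadjusted, 0 with DESeq2), where 13.2% were called, and 1, CXCL8, in polysomal mRNA, where 19.4% were.

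HPP against NPP gave 0 calls by edgeR in MDA-MB-231 total mRNA (1 unadjusted, 0 with DESeq2), where 2.72% of genes were called, and 0 in polysomal mRNA (1 unadjusted, 0 with DESeq2), where 3.55% were. HPP against H gave 0 in total mRNA (0 unadjusted, 0 with DESeq2), where 3.78% were called, and 0 in polysomal mRNA (0 unadjusted, 0 with DESeq2), where 11.5% were. The median member change in total mRNA was -0.27 in H, -0.21 in NPP and -0.30 in HPP, beside -0.02, -0.01 and -0.05 over all genes.

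**Figure D4:**
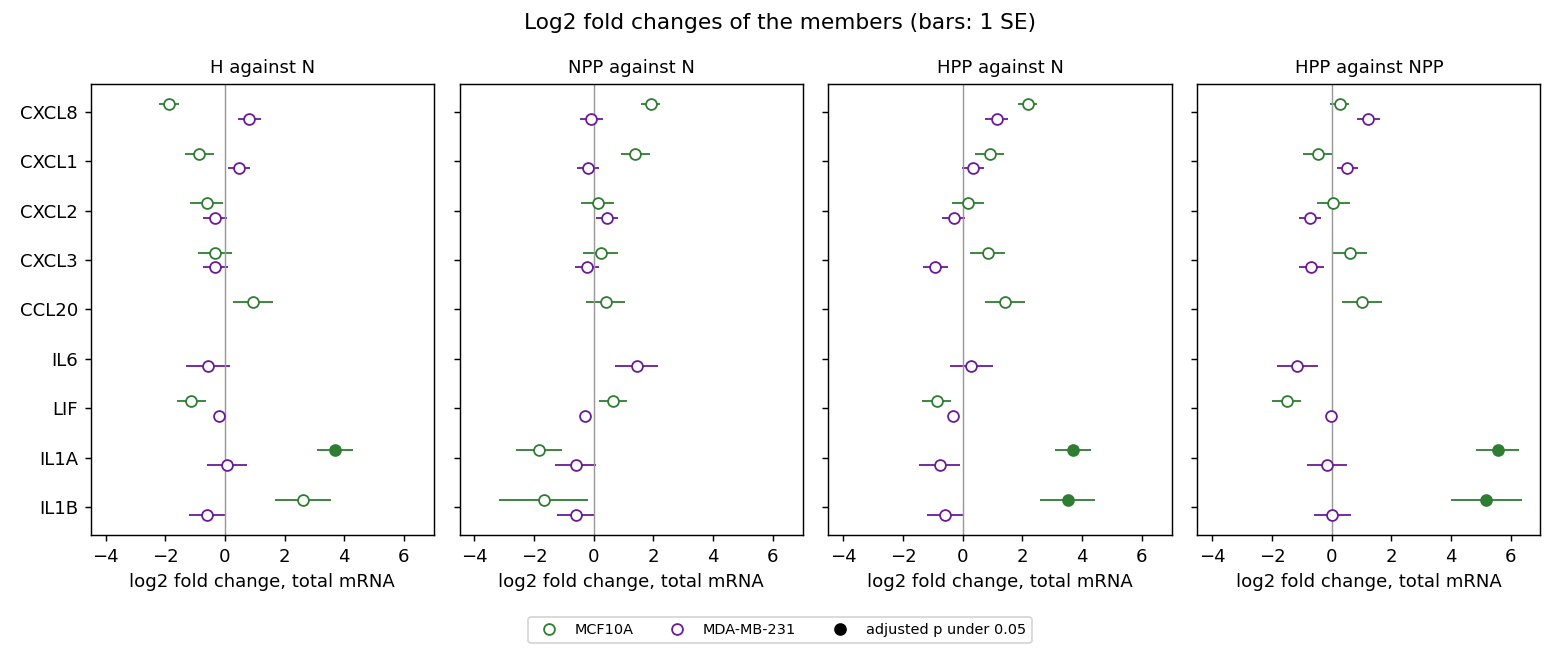
Log2 fold changes in total mRNA with bars of 1 SE, for 4 comparisons and both lines. Filled points have an adjusted p under 0.05, and open points were not called or, for CXCL8 in MCF10A against N, not tested. IL1A and IL1B in MCF10A stand to the right in the comparisons with hypoxia.

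Polysome loading was compared by the ratio of polysomal to total CPM within each culture. In MCF10A the ratio was below 1 in all 8 cultures for CXCL2 (0.146 to 0.406, median 0.297), CXCL3 (0.331 to 0.741, median 0.476), LIF (0.365 to 0.836, median 0.586) and CXCL8 (0.379 to 0.923, median 0.614). In MDA-MB-231 this held for CXCL2 (0.255 to 0.438, median 0.336), CXCL3 (0.19 to 0.642, median 0.392) and LIF (0.61 to 0.89, median 0.67). Of all genes fitted, 7.64% (MCF10A) and 16.3% (MDA-MB-231) had a ratio below 1 in all 8 cultures. CXCL1 had medians of 0.817 and 0.896 and was below 1 in 6 of 8 cultures of each line. CXCL8 in MDA-MB-231 was below 1 in 4 cultures and above it in 4, with a median of 1.06.

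**Figure D5:**
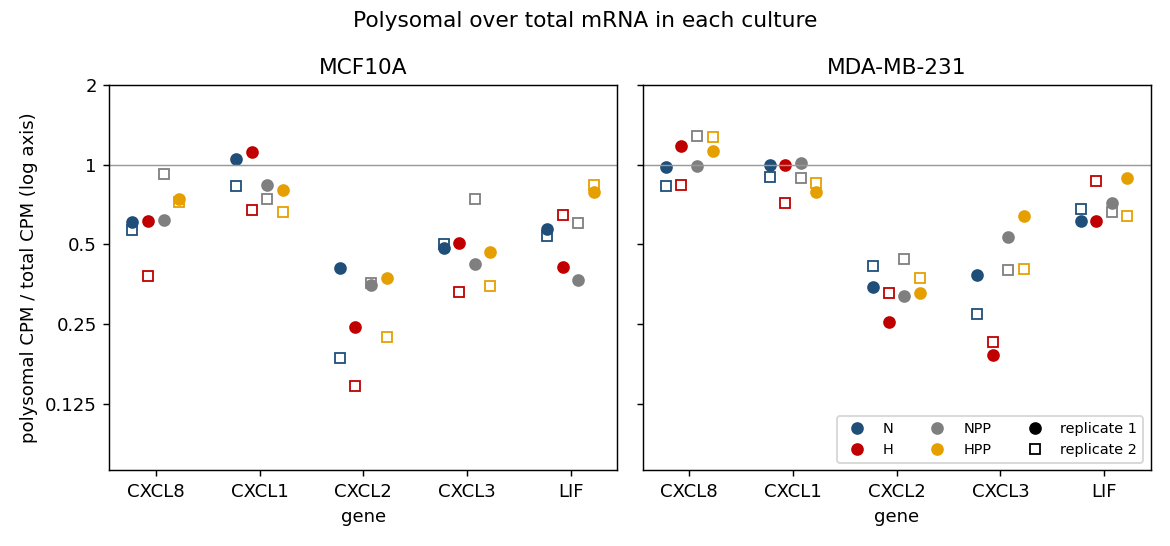
Ratio of polysomal to total CPM in each culture on a log axis, for 5 genes and both lines, coloured by condition and shaped by replicate. CXCL2 and CXCL3 lie well below 1 in both lines, and CXCL8 lies below 1 in MCF10A and around 1 in MDA-MB-231.

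Polysomal against total mRNA was tested in normoxia. In MDA-MB-231 3 of 8 members were called lower, where 13.1% of all genes were called in either direction. These were CXCL2 (-1.48 ± 0.43, adjusted p = 0.036), CXCL3 (-1.62 ± 0.46, adjusted p = 0.0342) and LIF (-0.63 ± 0.15, adjusted p = 0.0174). The CXCL2 call was lost without N T replicate 1 (0.272), N P replicate 1 (0.0889) or N P replicate 2 (0.194), and the CXCL3 and LIF calls without any of the 4 normoxic libraries (adjusted p up to 0.178 and 0.0982). With the reads of CXCL1, CXCL2 and CXCL3 summed, the change was -0.43 (adjusted p = 0.432) and did not pass. In MCF10A edgeR without a culture block called 0 of 7 members (1 at an unadjusted p under 0.05, CXCL2 at -1.69 ± 0.57 with an adjusted p of 0.334, and 0 with DESeq2), where 0% of all genes were called. With culture as a block, which pairs the libraries of a culture, no member passed either. There CXCL2 stood at -1.84 ± 0.40, CXCL3 at -1.02 ± 0.32, IL1A at -0.97 ± 0.38 and LIF at -0.86 ± 0.30 (edgeR adjusted p = 0.58 for each). CXCL1 (-0.10 ± 0.27), CCL20 (-0.08 ± 0.61) and IL1B (0.16 ± 0.95) lay within 1 SE of no change.

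Translational efficiency is the change in polysomal minus that in total mRNA. Among the members it gave no edgeR call in any of 6 comparisons, with 0 at an unadjusted p under 0.05 in the fit without a culture block. DESeq2 called 0 members as well, but under PP242 it gave adjusted p values to only part of the genes. These were 657 (NPP) and 3201 (HPP) of 13124 MCF10A genes, and 3033 and 8795 of 13510 for the cancer line. Of these it called 14.3%, 4.37%, 3.49% and 1.65%. A gene without an adjusted p could not be called, so nothing is concluded on the members from DESeq2 there. For H, NPP and HPP, edgeR called 0% of all genes in each MCF10A comparison, against 0.0148%, 0.34% and 0.696% in the cancer line. The standard errors were wide, as for IL6 (0.24 ± 1.01) and CXCL3 (0.57 ± 0.63) in NPP against N in MDA-MB-231. These come from the fit that does not pair the total and polysomal library of a culture, and with culture as a block IL6 stood at 0.17 ± 0.36 and CXCL3 at 0.54 ± 0.50, with no member called. In MCF10A that block put IL1A at 2.17 ± 0.60 in NPP (edgeR adjusted p = 0.963) and 1.03 ± 0.47 in HPP (0.945). The NPP value rests on 5 summed counts in total and 15 in polysomal mRNA.

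Whether the lines responded differently was tested as the MCF10A change minus the MDA-MB-231 change in the joint fit. IL1A differed in H against N in polysomal mRNA (4.70 ± 0.99, adjusted p = 0.0427), 1 of 8 members, where 0.329% of genes were called. In total mRNA edgeR called 0 of 8 members (3 at an unadjusted p under 0.05, 1 with DESeq2), where 0.266% of genes were called (0.888% with DESeq2), and IL1A stood at 3.56 ± 0.89 (0.119). In HPP against NPP IL1A, 1 of 9 members, differed in total mRNA (5.72 ± 1.02, adjusted p = 0.00943), where 0.615% of genes were called, and in polysomal mRNA (4.56 ± 0.93, adjusted p = 0.0183), where 1.05% were.

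The polysomal H difference of IL1A was lost in 22 of 32 fits that left out a library, with an adjusted p of up to 0.217, and the polysomal HPP difference in 7 of 32, where it fell to 3.83 without MCF10A HPP P replicate 2. The total HPP difference was lost without MDA-MB-231 NPP T replicate 1 (0.058) or HPP T replicate 2 (0.0561), and fell to 4.90 without MCF10A HPP T replicate 2. IL1B differed by 4.98 ± 1.22 in polysomal HPP against NPP (0.0509) and by 5.19 ± 1.45 in total mRNA (0.13), neither of which passed. CXCL8 differed by -0.99 ± 0.54 in total (0.667) and -1.03 ± 0.54 in polysomal mRNA (0.532) for HPP against NPP and did not pass. Its untested differences in H against N were -2.74 ± 0.57 and -3.05 ± 0.60.

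Genes around these cytokines were followed in 7 lists with 96 genes, which cover other cytokines, receptors, IL-1 to NF-κB signalling, NF-κB feedback genes, AP-1 and C/EBP factors, AU-rich mRNA decay factors and the JAK-STAT arm of the IL-6 family. The filter left 81 of them for MCF10A and 82 for MDA-MB-231. The lists were chosen with earlier results of these data known. Their shares beside those of all genes are therefore description, and enrichment was not tested. The receptors that read the chemokines were close to 0, with CXCR1 at most 0.101 CPM, CXCR2 at most 0.114 CPM and CCR6 at most 0.171 CPM in any library. In MCF10A and then MDA-MB-231, the median was 87.2 and 188 CPM for IL6ST, 2.11 and 17.7 CPM for LIFR, and 36.9 and 3.57 CPM for the IL-1 receptor gene IL1R1. TNF, an upstream inducer of NF-κB, did not exceed 0.341 CPM in any library.

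In hypoxic MCF10A cells 1 of the 81 genes rose and 1 fell in each fraction, 2.47% beside 1.54% of all genes in total and 1.49% in polysomal mRNA. The AP-1 subunit JUN rose by 1.93 ± 0.29 in total mRNA (adjusted p = 0.00533) and 2.08 ± 0.29 in polysomal mRNA (0.00334). SOCS3, the feedback inhibitor of gp130 signalling, fell by 1.57 (adjusted p = 0.0265) and 1.67 (0.0196). In NPP edgeR called 0 list genes in total mRNA, beside 0.648% of all genes. In polysomal mRNA 1 was called, ZFP36L2, an AU-rich element decay factor, which rose by 1.35 (0.0291), beside 0.823% of all genes.

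In HPP against N 14 of the 81 genes rose and 8 fell in MCF10A total mRNA, and 17 rose and 8 fell in polysomal mRNA, which is 27.2% and 30.9% of the tested list genes beside the 14.9% and 22.2% of all genes. In total mRNA the NF-κB targets ICAM1 (1.58 ± 0.25, adjusted p = 0.00199) and IER3 (1.74 ± 0.37, 0.00978) and the AP-1 subunit FOS (1.58 ± 0.47, 0.0443) rose. The cytokine genes IL24 (5.83 ± 1.18, 0.00708), IL11 (1.21 ± 0.29, 0.0162) and CSF3 (1.52 ± 0.37, 0.0187) rose as well. CSF1, the macrophage growth factor, fell by 2.80 (0.0013), the NF-κB subunit RELB fell by 1.69 (0.0154) and ELAVL1, an mRNA-stabilising AU-rich element binder, fell by 1.05 (0.00946), whereas the decay factor ZFP36 rose by 1.37 ± 0.30 (0.0107).

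In HPP against NPP 4 rose and 2 fell in MCF10A total mRNA. TNFAIP3, a feedback inhibitor of NF-κB, rose by 1.85 ± 0.37 (adjusted p = 0.0189), ICAM1 by 1.23 ± 0.25 (0.0215), IL32 by 2.38 ± 0.47 (0.0198) and JUN by 1.17 ± 0.28 (0.0405), and SOCS3 fell by 1.90 (0.00771) and CSF1 by 1.59 (0.0495). In polysomal mRNA 8 rose and 3 fell. These were 7.41% and 13.6% of the tested list genes, beside 4.17% and 7.44% of all genes. In HPP against H 6 rose and 2 fell in total mRNA, with JUN falling by 2.06 (0.00344), and 10 rose and 1 fell in polysomal mRNA, which is 9.88% and 13.6% of the list genes beside 3.74% and 6.5% of all genes.

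In MDA-MB-231, TNIP1, an NF-κB inhibitor, rose in H by 0.83 ± 0.14 in total mRNA (adjusted p = 0.00742), where 1 of 82 list genes was called, and by 0.86 ± 0.14 in polysomal mRNA (0.00445), where 2 rose. The other was MIF (1.56 ± 0.20, 0.000902), a cytokine. These counts are 1.22% and 2.44% of the list genes, close to the 1.27% and 2.29% of all genes. SOCS3 fell in NPP by 1.10 in total (0.0229) and 0.97 in polysomal mRNA (0.0183), and nothing else on the lists was called there, which is 1.22% of the list genes in each fraction beside 0.555% and 1.95% of all genes. In HPP against N 12 rose and 5 fell in total mRNA and 13 rose and 5 fell in polysomal mRNA, 20.7% and 22% of the tested list genes beside 13.2% and 19.4% of all genes, so the polysomal share was close to the background. CSF2, the granulocyte-macrophage growth factor, rose by 1.28 ± 0.39 in total (0.0452) and 1.67 ± 0.40 in polysomal mRNA (0.0102). NFKB2 rose by 0.97 ± 0.18 in total mRNA (0.00378) and ATF3 by 1.01 ± 0.27 (0.0259). In HPP against NPP 3 rose in total mRNA (3.66% beside 2.72% of all genes), and 5 rose and 1 fell in polysomal mRNA (7.32% beside 3.55%). In HPP against H 1 fell in total mRNA (1.22% beside 3.78%), and 4 rose and 2 fell in polysomal mRNA (7.32% beside 11.5%), both shares below those of all genes.

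The genes with the level pattern closest to CXCL8 were ranked by Pearson's r of log2 CPM over the 16 libraries of each line, which share 8 cultures and 4 conditions. In MCF10A these were CCDC120 and OTUD1 (r = 0.939 for both), USP30 (0.937), KIAA0040 (0.928) and GRB7 (0.924), and CXCL1 ranked 17 of 13123 genes (0.904). CXCL3 (0.642) and CXCL2 (0.573) ranked 583 and 856, and IL1A (-0.243) ranked 9456. In MDA-MB-231 the closest were B3GLCT (0.972), SLC17A5 (0.962), CSF2 (0.957), NDNF (0.956) and PLAT (0.945), and CXCL1 ranked 399 (0.747). CSF2 ranged from 1.74 to 9.95 CPM there, and PLAT, which encodes tissue plasminogen activator, from 115 to 1030 CPM.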

How the data were processed

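The authors made poly(A) RNA-Seq libraries with no strand stated, mapped the reads with STAR and deposited RSEM expected counts per gene as whole numbers, without normalisation. The labels name GRCh37 and the study's methods GRCh38, so positions here come from GENCODE v44 and RefSeq on GRCh38. The 10 genes and the gene lists were chosen with earlier results of these data known. Protein-coding genes passing filterByExpr (13124 in MCF10A, 13510 in MDA-MB-231 and 14298 jointly) were scaled by TMM and fitted in R 4.3.3 by the edgeR 4.0.16 quasi-likelihood test, with 8 groups per line and Benjamini-Hochberg adjustment. The 32-library fit gave line differences. DESeq2 1.42.0 was an alternative, as were no filter, summed CXCL1, CXCL2 and CXCL3 counts, blocks and leaving out each library. All 10 members are named, with some of the list genes called in a comparison and the 5 genes closest to CXCL8 in each line. Counting intervals cover counting error only. The fit was first tested on simulated data.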

Additional observations from a re-analysis of the deposited data

Results flagged for a closer look

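IL1A responded differently in the 2 lines by the test of the difference itself, the MCF10A change minus the MDA-MB-231 change. The difference was 4.70 (log2) in H against N in polysomal mRNA, with an edgeR adjusted p of 0.0427, lost in 22 of 32 fits that left out a library, and 3.56 in total mRNA, which did not pass (adjusted p = 0.119). In HPP against NPP it was 5.72 in total mRNA (adjusted p = 0.00943) and 4.555 in polysomal mRNA (adjusted p = 0.0183), and these calls were lost in 2 and 7 of 32 such fits, which gave 4.90 to 6.27 and 3.83 to 5.03. All hypoxic MCF10A libraries lay above all normoxic ones in each fraction, on 2 to 15 counts in the normoxic libraries, and MDA-MB-231 had 5 to 17 counts in every library.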

How the results depend on the processing

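Of the alternatives run, none reversed a result. Same-numbered groups deviated together in all 6 pairs of MCF10A total groups (r from 0.283 to 0.778), but in 3 of 6 pairs of its polysomal groups, in 11 of all 28 pairs in MCF10A and in 19 of 28 in MDA-MB-231 (-0.187 to 0.348), where the samples share only a number. With a replicate block, 1 member was called where 0 had been: CXCL1 in MCF10A in NPP against N in total mRNA and in HPP against H in both fractions, and CXCL8 in MDA-MB-231 in H against N in both fractions (adjusted p of 0.0192 and 0.00505), in HPP against N in total mRNA (0.000702), in HPP against NPP in both fractions (0.00121 and 0.000597) and in HPP against H in polysomal mRNA. With this block, 0.8%, 4.19% and 6.79% of all genes were called in these MCF10A comparisons. In MDA-MB-231 the shares were 2.43% and 4.52% (H against N), 18.4% (HPP against N), 5.04% and 7.11% (HPP against NPP) and 16.5% (HPP against H). The line difference of HPP against NPP then had 2 members, IL1A and IL1B, in each fraction, where 1.12% and 1.43% of all genes were called.

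A replicate block within each fraction, added after seeing the data, called 2 members in MCF10A polysomal H against N, IL1A and CXCL1 (-0.93, adjusted p = 0.0481), where it called 4.05% of all genes. It called 1, CXCL1, in NPP against N in each fraction (0.017 in polysomal mRNA, 5.07% of genes), 2 and 3 in HPP against H in total and polysomal mRNA (CXCL1 at 0.00224 in the latter, 14.9% of genes), and 1, CXCL2, in polysomal against total in normoxia, where it called 16.7% of genes and the fit without a block 0%. In MDA-MB-231 it called 1, CXCL8, in the same 6 comparisons as the block above, and CXCL3 was lost in polysomal against total (-1.37, adjusted p = 0.0518). In the order given there, those 6 comparisons had 2.3%, 4.74%, 19.3%, 5.24%, 8.02% and 17.7% of all genes called. A culture block changed no member's call on translational efficiency or polysomal against total mRNA. Over all MDA-MB-231 genes it called 0.0592% (NPP) and 0.555% (HPP) on translational efficiency, against 0.34% and 0.696% without it.

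DESeq2 called 1 member, CXCL1, in MCF10A HPP against H in each fraction, 1, IL1A, in the total line difference of H, and 2, IL1A and IL1B, in the polysomal line difference of HPP against NPP, and it lost CXCL3 in polysomal against total. Of all genes, DESeq2 called 8.12% and 12% in HPP against H and 0.888% and 2.67% in these line differences. Without the low-count filter, 1 member was called in MDA-MB-231 in H against N in both fractions and in HPP against N in total mRNA (CXCL8), 1 in NPP against N in both fractions and in polysomal HPP against H (IL6), and 2 in HPP against NPP in both fractions. Of all genes, this MDA-MB-231 fit called 2.6% and 4.27% in H against N, 11.7% in total HPP against N and 1.68% and 2.96% in NPP against N. It called 10.2% in polysomal HPP against H and 3.66% and 5.66% in HPP against NPP. The polysomal line difference of HPP against NPP without the filter also had 2 members, where 0.625% of all genes were called. In the unfiltered MDA-MB-231 fit the prior degrees of freedom were 214, against 6.49 with the filter, so a gene's own replicate spread had little weight.

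Leaving out 1 library at a time gave 0 to 1 members in MCF10A H against N and 1 to 2 in HPP against N and HPP against NPP, in each fraction. In MDA-MB-231 it gave 0 to 1 in HPP against N in each fraction and 0 to 3 in polysomal against total. The line differences gave 0 to 1 in H in each fraction, and 0 to 1 and 0 to 2 in HPP against NPP in total and polysomal mRNA, and the normoxic line comparison gave 6 to 7.

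Depth and spread limit these results. Replicates varied more in MCF10A (biological coefficient of variation 0.325) than in the cancer line (0.15), with 2 libraries per group. IL1B in MCF10A rests on 0 to 55 counts per library, IL1A on 2 to 15 in normoxic ones.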
